A study of Sus scrofa with 4 samples.

Results

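Transcripts of histone-modifying enzymes, chromatin remodelers, histones, high-mobility-group (HMG) proteins and nuclear coregulators were examined in porcine oocytes matured with or without an inhibitor of SIRT6. The genes were taken by symbol from the deposited table of read counts, as histone deacetylases (HDAC), acetyltransferases (KAT, EP300, CREBBP), methyltransferases (KMT, SETD, SUV39, EHMT, EZH, EED, SUZ12, PRMT), demethylases (KDM), TET dioxygenases, bromodomain, CBX, ING and UHRF readers, SMARC, CHD and ARID proteins, NCOA and NCOR coregulators, HMGA, HMGB and HMGN proteins, and core histones. DNA methyltransferases and sirtuins were left out. The rule found 36 genes among the 4381 symbols of the table, and 34 of them had enough counts to be tested. The table lists no EP300, CREBBP, KMT, SETD, EED, SUZ12, CHD or UHRF gene. HDAC3 was its only HDAC gene, TET1 its only TET gene, and SMARCD1 and SMARCD2 its only SMARC genes. Genes that the table does not list could not be examined. The data came from 4 libraries of M II oocytes. Of these, 2 held control oocytes and 2 held SIRT6-inhibited oocytes, which matured in vitro for 42 to 44 h in medium with 100 μM SIRT6-IN-1, a small molecule that enters cells and blocks SIRT6. Control oocytes matured for the same time without the inhibitor, and the sources used here do not say whether their medium held its solvent, DMSO. Oocytes were aspirated within their cumulus cells from slaughterhouse ovaries. The labels do not say whether the 2 libraries of a group came from separate collections, so p-values measure only the spread between these libraries, which may be technical.

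SIRT6 is a nuclear deacetylase that removes acetyl groups from histone H3. Acetylation by KAT enzymes and coactivators opens chromatin and is read by bromodomain proteins, while deacetylases, corepressors and several methyltransferases close it. The fully grown oocyte is nearly silent in transcription, so its mRNAs are a store laid down during growth, and many of its chromatin proteins are kept for remodeling of the genome after fertilization.

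Control libraries held 4646129 and 3405960 counts over all listed genes, and SIRT6-inhibited libraries held 3239200 and 4972602 (here and below, the first value of a pair is replicate 1). A gene under 3 counts, which is 0.603 to 0.926 CPM (counts scaled to the same total in each library), could not be told from 0. Intervals and floors of this kind cover counting error only, since amplified reads are not independent molecules. All 14 listed oocyte markers had counts in every library, from 12 counts for DDX4 in SIRT6-inhibited library 2 to 231427 for WEE2 in the same library. They summed to 120080 and 118080 normalized CPM in control and 123390 and 127200 in SIRT6-inhibited oocytes, and WEE2, an oocyte kinase that holds meiotic arrest, drew the most counts, followed by KPNA7 and H1FOO. Of the 14 markers 3 had an unadjusted p below 0.05, against 9.05% of all tested genes, and 0 passed adjustment in edgeR's test. These 3 had log2 fold changes of -1.66 for GDF9, -0.37 for ZP2 and 0.23 for WEE2. Of 19 listed cumulus cell markers, 7 were at 0 counts in all 4 libraries, among them FSHR, LHCGR, AMH and TNFAIP6. The cumulus list summed to 196 and 221 normalized CPM in control and to 88.5 and 209.9 in SIRT6-inhibited oocytes, so that SIRT6-inhibited library 1 had the lowest sum, with VCAN as its most counted gene. Of 7 listed blood cell markers 4 were at 0, including HBB and LYZ, and their sum lay between 30.7 and 42.6 normalized CPM. Whether residual cumulus RNA had a part in the differences below was not tested.

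Together the 36 genes took a larger share of the counts in each SIRT6-inhibited library than in either control. Their share was 1.91% (exact 95% binomial interval 1.90% to 1.92%) and 1.95% (1.93% to 1.96%) in control oocytes, and 2.03% (2.01% to 2.05%) and 2.09% (2.08% to 2.10%) in SIRT6-inhibited oocytes. The exact permutation test of 2 libraries against 2 can give no two-sided p-value below 0.333. Most of the difference lay in NCOA3, which alone took 39.6% and 40.7% of the 36 genes' counts in control and 42.2% and 43.9% in SIRT6-inhibited oocytes. Without NCOA3 the shares of the library were 1.155% and 1.155% against 1.173% and 1.173%. Shares of counts depend on transcript length as well as abundance, so they do not rank one gene's transcript level against another's.

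No gene of the group passed Benjamini-Hochberg adjustment. In edgeR's quasi-likelihood test on all 2387 tested genes, 0 genes (0%) passed at an adjusted p of 0.05, and the lowest adjusted p was 0.460. The whole-table count was 216 genes with an unadjusted p below 0.05, while DESeq2's Wald test gave 37 genes and limma-voom 0 genes an adjusted p-value under 0.05. Of the 34 tested chromatin genes 5 (14.7%) had an unadjusted p below 0.05, against 9.05% of all tested genes. Of these 5, 3 were higher in SIRT6-inhibited oocytes (8.82% of 34, against 3.06% of all tested genes), NCOA3 and SMARCD1 among them, and 2 were lower (5.88% of 34, against 5.99%), ARID4A among them. These counts describe the genes beside the whole table, and no test was made of the difference in shares.

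The log2 fold change of SIRT6-inhibited over control oocytes was above 0 for 21 of the 34 tested chromatin genes (61.8%), against 47.2% of all tested genes. Its median was 0.11 over the chromatin genes and -0.04 over all tested genes. With a library left out the median ran from 0.056 to 0.089 over the chromatin genes and from -0.092 to 0.021 over all tested genes. With counts scaled by library totals alone the median was 0.05 over the chromatin genes and -0.10 over all tested genes, and NCOA1 and HMGN2 were below 0. This scaling lowered the median of all tested genes by a shift of -0.059. Where no library had fewer than 10 counts, 21 of 32 chromatin genes and 49.8% of 1840 genes in all were higher, with medians of 0.12 and -0.0027. Libraries of control and treated oocytes were fully separated for 17 of 34 chromatin genes, against 40.1% of all tested genes. In 10 of these 17 both SIRT6-inhibited libraries were above both controls (29.4%, against 17.9% of all tested genes) and in 7 both were below (20.6%, against 22.2%). Values from pooled oocytes, relative to a library's total counts, do not give RNA per cell. Nor do they tell a difference in all oocytes from a difference in some of them.

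**Figure D1:**
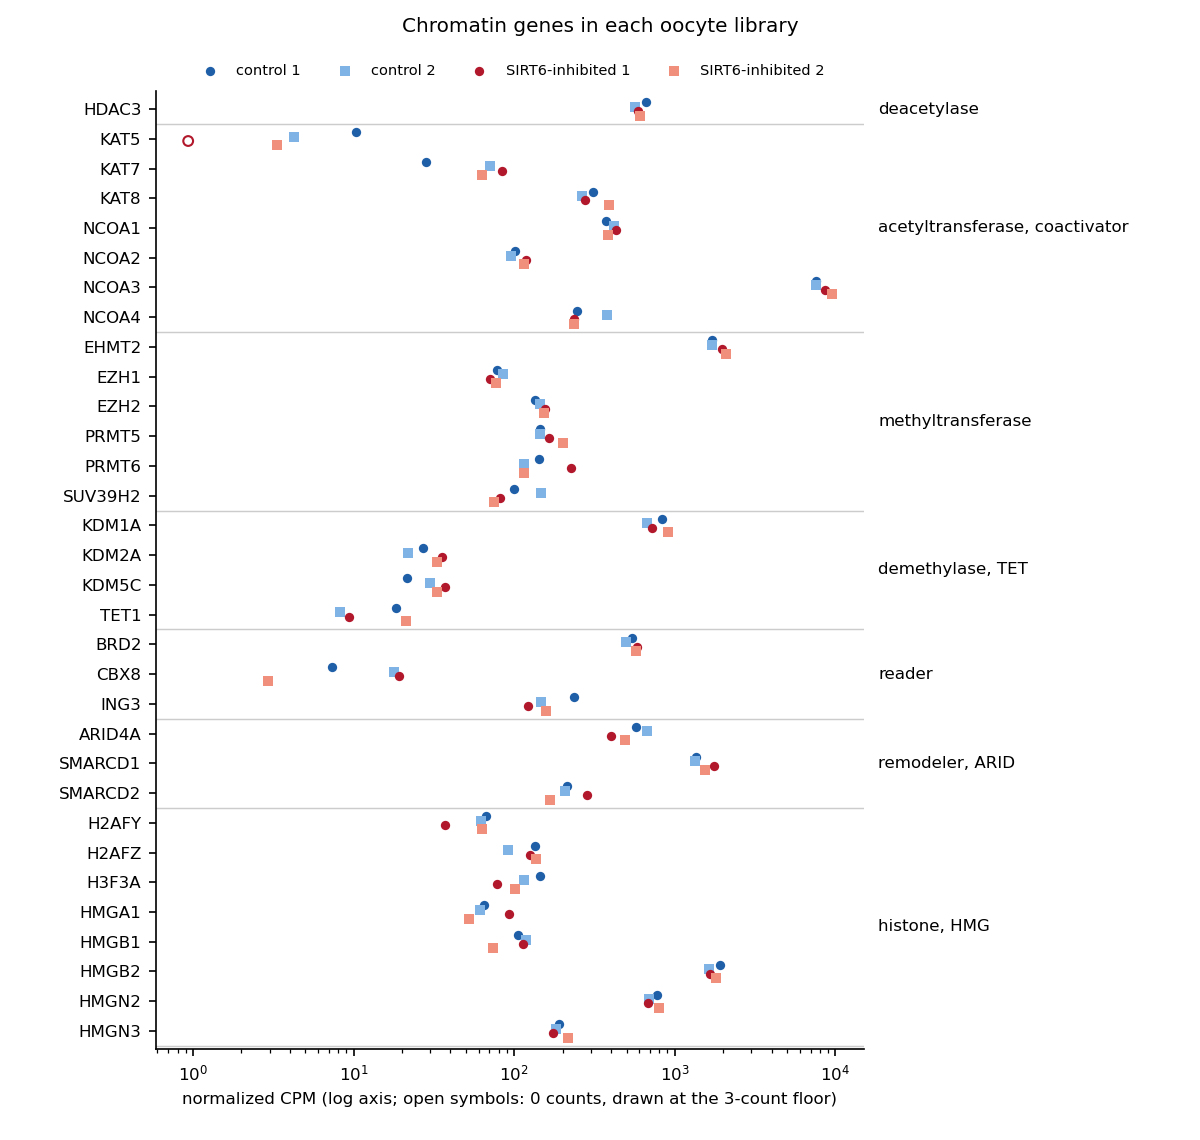
Normalized CPM (log axis) of 32 tested chromatin genes in each of the 4 libraries, grouped by role, with open symbols for 0 counts drawn at the 3-count floor. NCOA3 lies between 7585 and 9495 in every library, and KAT5 has 0 counts in SIRT6-inhibited library 1.

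**Figure D2:**
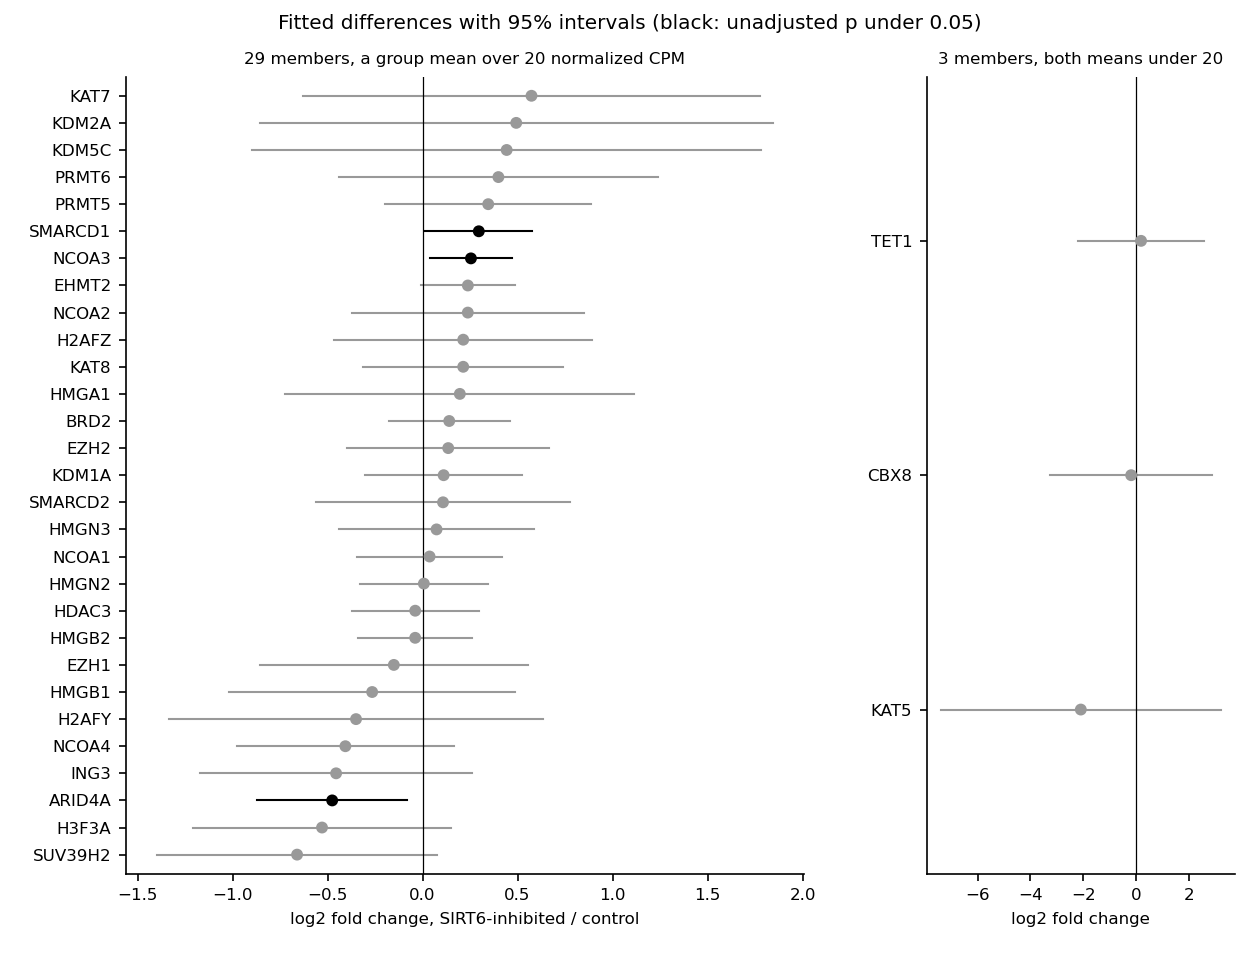
Log2 fold change (SIRT6-inhibited over control, edgeR) with its 95% interval for 32 chromatin genes, in black where the unadjusted p was under 0.05. The intervals of SMARCD1, NCOA3 and ARID4A do not cross 0.

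Among readers of histone marks, BRD2 was higher in both SIRT6-inhibited libraries by a small amount. This bromodomain protein, which binds acetylated histones, had 542 and 499 normalized CPM in control and 577 and 569 in SIRT6-inhibited oocytes, a log2 fold change of 0.14 (95% interval -0.18 to 0.46, edgeR adjusted p = 0.932), and of 0.08 without control library 2. ING3, a subunit of the TIP60 acetyltransferase complex that reads methylated H3, had 236 and 148 normalized CPM in control and 122 and 158 in SIRT6-inhibited oocytes. Its groups overlapped, because control library 2 was below SIRT6-inhibited library 2 (log2 fold change -0.46, edgeR adjusted p = 0.772). Without control library 1 the log2 fold change of ING3 was -0.08, and without control library 2 it was -0.76. CBX8, a Polycomb protein that reads methylated H3, had between 14 and 63 counts per library, and its highest and lowest values were both in SIRT6-inhibited oocytes, at 19.3 and 2.92 normalized CPM.

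NCOA3 drew the most counts of the group in every library. It encodes a coactivator of nuclear receptors that recruits acetyltransferases, and RefSeq places the gene at chr17:49528275-49660471 of Sscrofa11.1. Transcript counts were 35131 and 27027 in control and 27768 and 45590 in SIRT6-inhibited oocytes, which is 7585 and 7608 against 8627 and 9495 normalized CPM. The controls nearly coincided, at 7597 ± 16.3 (SD, n = 2), and both SIRT6-inhibited libraries lay above them, at 9061 ± 614 (SD, n = 2). This is a 1.19-fold difference, a log2 fold change of 0.25 (standard error, SE, 0.091, 95% interval 0.037 to 0.47, edgeR adjusted p = 0.505). DESeq2's Wald test gave NCOA3 an adjusted p of 0.0255, and over all alternatives the adjusted p ranged from there to 0.950. With either SIRT6-inhibited library left out, the unadjusted p of NCOA3 was above 0.05, while its log2 fold change stayed between 0.18 and 0.32 over the 4 fits that left out a library.

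Of the related coactivators, NCOA2 was higher in both SIRT6-inhibited libraries with a wider interval, and NCOA1 overlapped between groups. NCOA2 had 102 and 95.4 normalized CPM in control and 118 and 115 in SIRT6-inhibited oocytes, without overlap, for a log2 fold change of 0.24 (95% interval -0.37 to 0.85, edgeR adjusted p = 0.956). NCOA1 had 374 and 421 against 430.0 and 385, and its groups overlapped (log2 fold change 0.04, 95% interval -0.35 to 0.42, and -0.02 with library totals alone). NCOA4, which also acts as the receptor that delivers ferritin to autophagosomes, had 247 and 379 normalized CPM in control and 237 and 236 in SIRT6-inhibited oocytes. NCOA4 was thus lower in both SIRT6-inhibited libraries, and its log2 fold change of -0.41 (95% interval -0.98 to 0.17, edgeR adjusted p = 0.719) was -0.07 without control library 2, and without control library 1 it was -0.69, with an unadjusted p below 0.05.

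The 3 listed MYST acetyltransferases did not separate the groups in one direction. KAT8, the main acetyltransferase of a tail lysine of histone H4, had 307 and 265 normalized CPM in control and 274 and 389.7 in SIRT6-inhibited oocytes (log2 fold change 0.21, edgeR adjusted p = 0.945). KAT7, a histone H3 and H4 acetyltransferase linked to replication origins, had 28.1 and 70.4 against 83.6 and 62.7 (log2 fold change 0.57, 95% interval -0.63 to 1.78, edgeR adjusted p = 0.906). KAT5, the catalytic subunit of TIP60, had few counts, with 48 and 15 counts in control and 0 and 16 counts in SIRT6-inhibited oocytes. In normalized CPM this is 10.4 and 4.22 against 0 and 3.33, lower without overlap (edgeR adjusted p = 0.956). Replicates of KAT7 and KAT5 in control oocytes differed by 1.33 and -1.29 on the log2 scale (library 2 over library 1), more than the group difference for KAT7, whose log2 fold change was 0.05 without control library 1 and 1.38 without control library 2, the latter with an unadjusted p below 0.05. The log2 fold change of KAT5 was -2.09 (95% interval -7.40 to 3.22), and -3.30 with the replicate block. Without SIRT6-inhibited library 1 it was -1.13, and without SIRT6-inhibited library 2, which left 0 counts in that group, it was -7.80.

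HDAC3, the deacetylase of nuclear receptor corepressor complexes, did not separate the groups. It had 664 and 567 normalized CPM in control and 588 and 610.2 in SIRT6-inhibited oocytes, both within the range of the controls. The log2 fold change was -0.04, with a 95% interval of -0.37 to 0.30 (edgeR adjusted p = 0.992).

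SMARCD1 and ARID4A, from remodeling and corepressor complexes, differed in opposite directions. SMARCD1 is a subunit of SWI/SNF remodelers that links them to transcription factors, at chr5:15992348-16005778. It had 1349.5 and 1328 normalized CPM in control and 1754 and 1532 in SIRT6-inhibited oocytes, with both SIRT6-inhibited libraries above both controls. The difference was 1.23-fold, or 0.30 on the log2 scale with an SE of 0.12 and a 95% interval of 0.014 to 0.58 (edgeR adjusted p = 0.534). Its unadjusted p was below 0.05 in 7 of 9 other fits, but above it with library totals alone, with the replicate block and with any single library left out, where the log2 fold change was between 0.19 and 0.39. SMARCD2, its paralog in the same complexes, had 212 and 207 normalized CPM in control and 285 and 168 in SIRT6-inhibited oocytes, so that the SIRT6-inhibited libraries lay on either side of the controls.

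ARID4A, a DNA-binding subunit of the SIN3-HDAC corepressor that also binds the retinoblastoma protein, was lower in SIRT6-inhibited oocytes. The gene lies at chr1:187385324-187452558. It had 569 and 669 normalized CPM in control and 402 and 487 in SIRT6-inhibited oocytes, and the higher SIRT6-inhibited library was below the lower control. The fitted level was 0.719 of the control, a log2 fold change of -0.48 (SE 0.16, 95% interval -0.87 to -0.082, edgeR adjusted p = 0.496). All 9 other fits kept the unadjusted p of ARID4A under 0.05, with edgeR, DESeq2 or limma-voom adjusted p from 0.190 to 0.494, and the log2 fold change stayed between -0.62 and -0.35 with a library left out. Without control library 2, or without SIRT6-inhibited library 1, its unadjusted p was above 0.05, and the adjusted edgeR p of ARID4A reached 0.950.

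**Figure D3:**
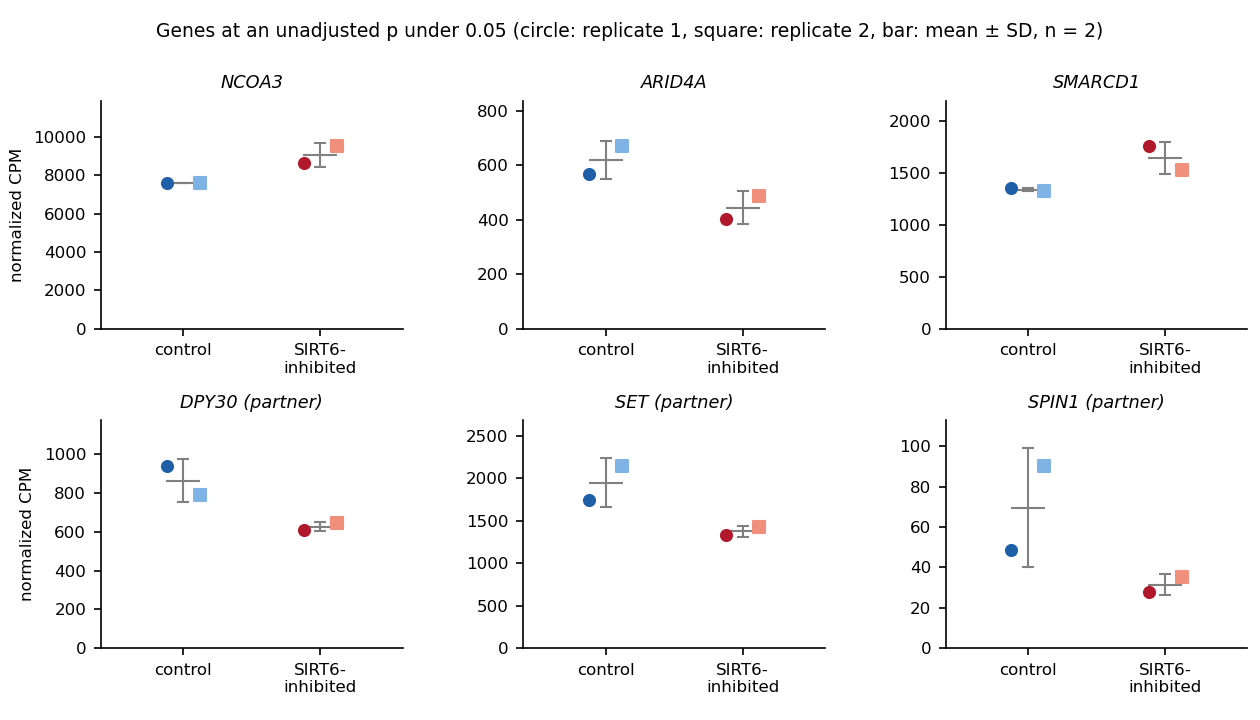
Normalized CPM per library (linear axes from 0, circles for replicate 1, squares for replicate 2, grey bars for mean ± SD, n = 2) of 3 chromatin genes and 3 partner genes with an unadjusted p below 0.05. In each panel the 2 SIRT6-inhibited libraries lie on one side of the 2 control libraries.

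Of the 6 tested histone methyltransferases, 4 were higher and 2 lower, and in edgeR's test none had an unadjusted p below 0.05. EHMT2, also called G9a, adds methyl groups to a lysine of histone H3 that marks silent chromatin. It had 1708 and 1711 normalized CPM in control and 1962 and 2070.0 in SIRT6-inhibited oocytes, without overlap, and its log2 fold change of 0.24 (SE 0.10, edgeR adjusted p = 0.564) had an unadjusted p of 0.0569. In 3 of 9 other fits (RLE scaling, DESeq2 and limma-voom) the unadjusted p of EHMT2 was below 0.05, with adjusted p from 0.288 to 0.950 over all alternatives. SUV39H2, which carries the same lysine to trimethylation, had 99.1 and 147 normalized CPM in control and 81.4 and 74.4 in SIRT6-inhibited oocytes, so its direction was the opposite. The log2 fold change of SUV39H2 was -0.66 (SE 0.31, 95% interval -1.40 to 0.078, edgeR adjusted p = 0.573). Without control library 1 its unadjusted p was under 0.05, while the log2 fold change over the fits that left out a library was between -0.93 and -0.35.

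EZH2 and EZH1 are alternative catalytic subunits of Polycomb complex PRC2, which methylates histone H3 at repressed genes. EZH2 had 134 and 145 normalized CPM in control and 154 and 152 in SIRT6-inhibited oocytes, a log2 fold change of 0.13 (95% interval -0.40 to 0.67, edgeR adjusted p = 0.980). EZH1 had 78.4 and 85.3 against 70.2 and 77.1, a log2 fold change of -0.15 (95% interval -0.86 to 0.56). Neither pair of groups overlapped, and both differences were small beside their intervals. With a library left out they ran from 0.07 to 0.19 for EZH2 and from -0.22 to -0.09 for EZH1. PRMT5, which makes symmetric dimethylarginine on histones and splicing proteins, had 145 and 145 normalized CPM in control and 165 and 202 in SIRT6-inhibited oocytes (log2 fold change 0.35, 95% interval -0.20 to 0.89, edgeR adjusted p = 0.772). Leaving out SIRT6-inhibited library 2 gave 0.19 for PRMT5. PRMT6, an asymmetric arginine methyltransferase of histone H3, had 143 and 114 against 224 and 116, and without SIRT6-inhibited library 1 its log2 fold change of 0.40 turned to -0.16. Without SIRT6-inhibited library 2 the log2 fold change of PRMT6 was 0.80, with an unadjusted p below 0.05.

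All 4 tested demethylases and TET enzymes had log2 fold changes above 0, and none had an unadjusted p below 0.05. KDM1A, also called LSD1, which removes methyl groups from histone H3, had 837 and 668 normalized CPM in control and 721 and 903 in SIRT6-inhibited oocytes. Its groups overlapped, and the log2 fold change of 0.11 (95% interval -0.30 to 0.52, edgeR adjusted p = 0.980) was below 0 without control library 2 or SIRT6-inhibited library 2. KDM2A, a demethylase of histone H3 with a CpG-binding domain, had 27.2 and 21.7 normalized CPM against 35.7 and 33.1, without overlap (log2 fold change 0.49, 95% interval -0.86 to 1.84). KDM5C, a demethylase of promoter marks on histone H3 that is encoded on the X chromosome, had 21.6 and 29.8 against 37.0 and 32.9, also without overlap (log2 fold change 0.44, 95% interval -0.90 to 1.78). Leaving out control library 1 gave 0.22 for KDM5C, and leaving out control library 2 gave 0.69. TET1, which oxidizes methylcytosine, had 85 and 29 counts in control and 30 and 101 counts in SIRT6-inhibited oocytes. Its groups overlapped, with 1 high and 1 low library in each (log2 fold change 0.20, 95% interval -2.20 to 2.59). The log2 fold change of TET1 was -0.28 without control library 2 and -0.51 without SIRT6-inhibited library 2.

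Of the 8 tested histone and HMG genes 4 were higher and 4 lower, and HMGN2, among the higher, was lower with library totals alone. H3F3A, which encodes the replacement histone H3.3, had 144 and 115 normalized CPM in control and 78.6 and 101 in SIRT6-inhibited oocytes, and was the only gene among these 8 whose groups did not overlap. Its log2 fold change was -0.53 (SE 0.285, 95% interval -1.21 to 0.15, edgeR adjusted p = 0.651). The count of H3F3A is uncertain, because the same protein is encoded by another gene and by processed copies of similar sequence. H2AFZ, the variant H2A.Z, had 134 and 92.1 normalized CPM against 125 and 137, and H2AFY, the variant macroH2A, had 66.3 and 62.2 against 37.3 and 63.3. The log2 fold change of H2AFY was -0.35, and -0.03 without SIRT6-inhibited library 1 and -0.79 without SIRT6-inhibited library 2. HMGB2, a DNA-bending protein, had 1922 and 1635 against 1653.5 and 1808.5, with a 95% interval of -0.34 to 0.26 for its log2 fold change. HMGN2, which binds nucleosomes, had 774 and 694 against 679 and 795, with an interval of -0.33 to 0.34. HMGB1, the paralog of HMGB2, had 106 and 118 against 113 and 73.3, and its log2 fold change of -0.27 was 0.01 without SIRT6-inhibited library 2. HMGA1 and HMGN3 overlapped between groups, with log2 fold changes of 0.20 and 0.07, and HMG genes have many processed pseudogenes that can share their reads.

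The 2 genes that were not tested encode histones of the replication-dependent cluster. HIST1H2BD had 0 counts in each library. HIST1H3E had 0 and 7 counts in control and 2 and 4 counts in SIRT6-inhibited oocytes. At these counts neither level can be compared, and why the counts were low was not tested.

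The size of each group difference was set against the gap between the 2 libraries of one group. For the 32 genes that no library covered with fewer than 10 counts, the median absolute gap was 0.19 in control and 0.21 in SIRT6-inhibited oocytes on the log2 scale, and the median absolute group difference was 0.24. The group difference was larger than both gaps for 13 genes, among them ARID4A, BRD2, EHMT2, EZH1, EZH2, H3F3A, KDM2A, NCOA2, NCOA3, PRMT5, SMARCD1 and SUV39H2. This is 40.6% of the 32 genes, against 28.5% of the 1840 tested genes under the same count minimum, and no test was made of the difference in shares. Over those 1840 genes the median absolute gap was 0.31 in control and 0.34 in SIRT6-inhibited oocytes, and the median absolute group difference was 0.30. For the other 19 genes the difference between libraries of one group was as large as that between the groups or larger.

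Shares of counts within pairs of related genes need no scaling between libraries, and these pairs were picked after their values were seen. Such shares overlapped between groups for NCOA3 among NCOA1, NCOA2 and NCOA3, and for KAT8 among KAT5, KAT7 and KAT8. They also overlapped for HMGB2 with HMGB1 and for HMGN2 with HMGN3. EHMT2 took 94.5% and 92.1% of the counts on EHMT2 and SUV39H2, both writers of methylation at the same lysine, in control oocytes and 96.0% and 96.5% in SIRT6-inhibited oocytes. EZH2 took 63.1% and 63.0% of the EZH1 and EZH2 counts in control and 68.7% and 66.4% in SIRT6-inhibited oocytes, with counting intervals that overlapped between groups. PRMT5 took 50.3% and 55.9% of the PRMT5 and PRMT6 counts in control and 42.4% and 63.65% in SIRT6-inhibited oocytes, so here the SIRT6-inhibited libraries stood furthest apart. SMARCD1 took 86.4% and 86.5% of the SMARCD1 and SMARCD2 counts in control and 86.04% and 90.1% in SIRT6-inhibited oocytes, so that SIRT6-inhibited library 2 alone stood apart.

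**Figure D4:**
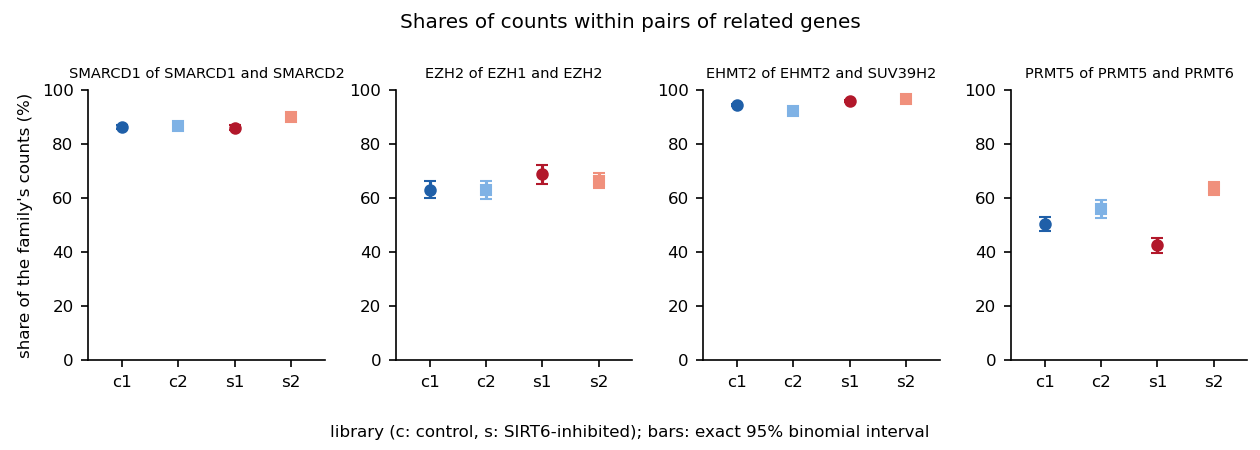
Share of the counts on each pair of related genes taken by the first gene (percent, axis from 0 to 100), with exact 95% binomial intervals, in control libraries c1 and c2 and SIRT6-inhibited libraries s1 and s2. EHMT2 takes 94.5% and 92.1% in control against 96.0% and 96.5% in SIRT6-inhibited oocytes.

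Partners of these enzymes that the symbol rule does not match, such as complex subunits, histone chaperones and other readers, were taken from a list of 226 symbols. The table lists 32 of them and 28 were tested. Their median log2 fold change was -0.02, with 13 genes higher (46.4%, against 47.2% of all tested genes) and 15 lower. Of the tested partners 3 (10.7%) had an unadjusted p below 0.05, against 9.05% of all tested genes, a share near the background. These 3 were lower in SIRT6-inhibited oocytes, where the share of all tested genes was 5.99%, and 0 passed adjustment in edgeR's test. SET, a histone chaperone that masks histones from acetyltransferases and inhibits protein phosphatase PP2A, had 1743 and 2151 normalized CPM in control and 1332 and 1422.5 in SIRT6-inhibited oocytes. On the log2 scale its difference was -0.50 (SE 0.14, edgeR adjusted p = 0.460), and the adjusted p over the alternatives ran from 0.0282, without a filter on low counts, to 0.950. The unadjusted p of SET was under 0.05 in every other fit and with each library left out. SET has processed copies of similar sequence, so its count is uncertain.

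DPY30, a core subunit of the COMPASS complexes that methylate histone H3 at promoters, had 942 and 788 normalized CPM in control and 612 and 643 in SIRT6-inhibited oocytes. Both SIRT6-inhibited libraries were below both controls (log2 fold change -0.46, SE 0.14, edgeR adjusted p = 0.469). Without control library 1, or without SIRT6-inhibited library 1, the unadjusted p of DPY30 was above 0.05. SPIN1, a reader of methylated H3 known in oocytes as the spindle-bound protein spindlin, had 48.8 and 90.4 normalized CPM in control and 27.7 and 35.0 in SIRT6-inhibited oocytes (log2 fold change -1.15, SE 0.48, edgeR adjusted p = 0.546). Its unadjusted p was below 0.05 in 4 of 9 other fits, and above it without control library 2 (log2 fold change -0.64) or SIRT6-inhibited library 1 (-0.99). USP7, a deubiquitinase of chromatin proteins, had 2305 and 2498 against 2729 and 2959.8, without overlap (log2 fold change 0.24, edgeR adjusted p = 0.568). SIRT6 itself had 0 and 42 counts in control and 52 and 57 counts in SIRT6-inhibited oocytes (edgeR adjusted p = 0.980), and the inhibitor targets the protein.

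**Figure D5:**
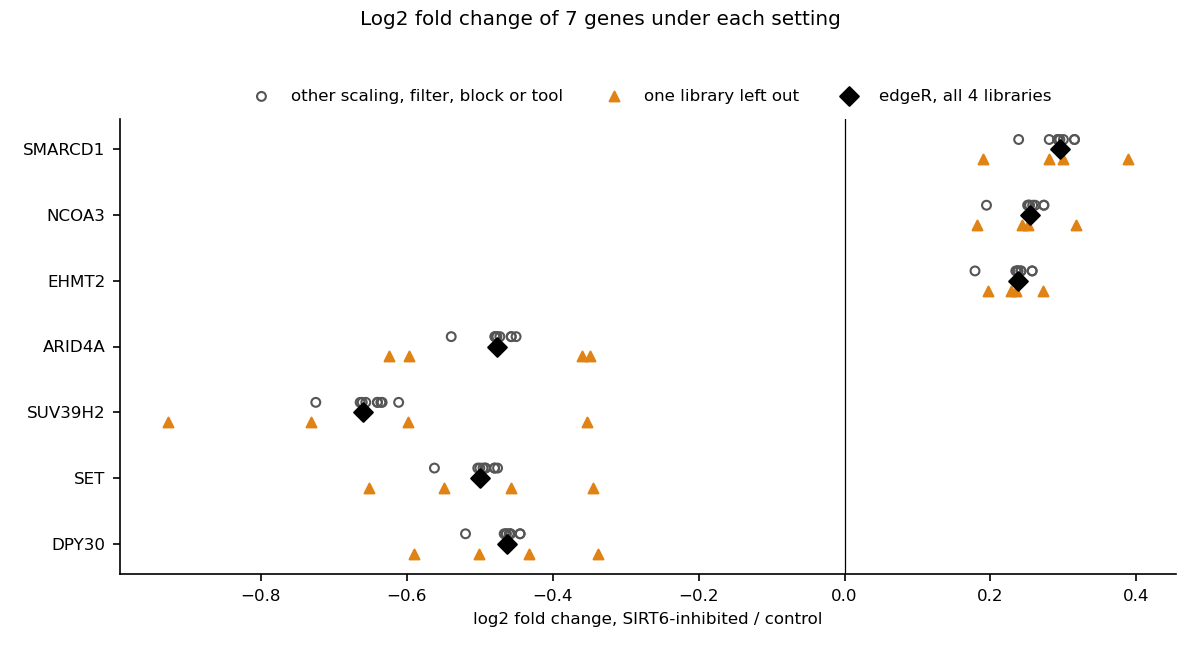
Log2 fold change (SIRT6-inhibited over control) of 5 chromatin genes and the partners SET and DPY30 in the edgeR fit of all 4 libraries (diamonds), in the 9 other fits (circles) and with 1 library left out (triangles). These 7 genes were picked after their values were seen, and 14 of the 34 tested chromatin genes changed sign in some fit. No point of the 7 genes shown crosses 0, and NCOA3 stays between 0.18 and 0.32 when a library is left out.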

How the data were processed

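RNA of pooled M II oocytes was amplified by Smart-seq2 and made into mRNA libraries, per the labels. The study's methods describe RNA extraction and a library kit with random primers and PCR enrichment, and do not name Smart-seq2. The authors deposited whole-number read counts per gene symbol. The submitters' processing notes name TopHat2 2.0.13, Cufflinks 2.2.1, Cuffnorm and Cuffdiff and the builds susScr11 and mm10, with no roles. The counting tool, annotation and strand setting are not given in the sources used here, so reads of overlapping or antisense genes cannot be told apart. No source used here names molecular identifiers.

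From the deposited counts, genes passing edgeR's filterByExpr (minimum count 10, minimum total 15) were scaled by TMM and tested with edgeR 4.0.16 (quasi-likelihood, R 4.3.3), with Benjamini-Hochberg adjustment over all 2387 genes and a threshold of 0.05. The common biological coefficient of variation was 0.651. Normalized CPM are counts divided by the TMM-scaled library totals and brought to a common scale. Standard errors came from the quasi-likelihood F statistic. The fit was tested on simulated counts. All 36 genes matched RefSeq's Sscrofa11.1 by symbol.

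Described genes were those with an unadjusted p-value under 0.05; in each role, the gene with the highest mean level and the gene with the largest difference among those whose groups do not overlap; a fixed list that here gave EZH2, KDM1A and HMGB1; partners with an unadjusted p-value under 0.05; and SIRT6. Of these, 2 chromatin genes are not reported here. The other genes, USP7 among them, were described after their values were seen. Members and lists were chosen with earlier results of these data known.

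Alternatives were RLE scaling, library totals alone, totals without the 10 most counted genes, no filter, at least 10 counts in every library, a replicate block, DESeq2 1.42.0, limma-voom (limma 3.58.1) and leaving out each library. A crossed block was chosen after seeing the data.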

Additional observations from a re-analysis of the deposited data

How the results depend on the processing

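At an adjusted p-value under 0.05, the 9 other fits gave 0 chromatin genes except DESeq2, with 2, NCOA3 among them. Over all genes the counts were 43 with no filter, 2 with at least 10 counts in every library, 37 with DESeq2, and 0 to 77 with a library left out. Partners passing were 1 with no filter and 1 with DESeq2. Replicate numbers are not stated to pair libraries, and deviations of same-numbered libraries had a correlation of -0.117 across genes. At an adjusted p-value under 0.05 the replicate block gave 6 genes in all, and crossing the pairs gave 2. At an unadjusted p-value under 0.05 lower chromatin genes were 1 with the replicate block, 1 with crossed pairs, 1 with limma-voom and 1 with at least 10 counts in every library. With a library left out they were 0 to 4, higher chromatin genes 1 to 3, partners 3 to 5, and lower genes in all 58 to 243. The median log2 fold change of the chromatin genes was 0.054 with library totals, 0.070 with limma-voom, and 0.056 to 0.089 with a library left out. Of 34 genes 20 kept their sign in all fits. The other 14 include NCOA1 (-0.023) and HMGN2 (-0.052) with library totals and SMARCD2 with limma-voom (-0.0041). With a library left out, log2 fold changes ran from -2.10 to 0.62 for CBX8, -0.035 to 0.50 for H2AFZ, -0.15 to 0.071 for HDAC3, -0.29 to 0.56 for HMGA1, -0.61 to 0.014 for HMGB1, -0.16 to 0.073 for HMGB2, -0.11 to 0.11 for HMGN2, -0.083 to 0.21 for HMGN3, -0.064 to 0.44 for KAT8, -0.063 to 0.27 for KDM1A, -0.055 to 0.12 for NCOA1, -0.16 to 0.80 for PRMT6, -0.32 to 0.44 for SMARCD2 and -0.51 to 0.88 for TET1. The cause was not tested. A lone library was assumed to vary like those of the other group. KAT5, CBX8 and TET1 had 101 counts or fewer in every library and differed widely between libraries of a group. How much of that spread is counting error was not tested.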
